A study of Mus musculus with 15 samples.

Results

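The lower branch of the first branchial arch in Dlx5/6 mutant mouse embryos was compared with the upper branch of wild-type embryos, to describe what still separated the mutant lower branch from a true upper branch. The comparison used the 3 arrays labelled 5_6_MNA against the 3 arrays labelled WT_MXA, that is 6 of the 15 Affymetrix arrays of the series, chosen by their titles alone. MNA was read as the mandibular (lower) and MXA as the maxillary (upper) branch, since the labels' description names these branches. All tissue was labelled E10.5, the day of gestation. The 3 wild-type (WT) mandibular arrays served to say which genes mark the branches, and 3 further wild-type maxillary arrays (WT_MXA2, called set 2 here, the comparison arrays being set 1) served as a second control. The remaining 3 arrays, KO maxillary, entered the normalization, the filter on dim probe sets and the estimate of the spread. No label gives the Dlx5/6 alleles, the strain, the sex of the embryos or what sets WT_MXA2 apart, and the shared description is a plan that also names other Dlx mutants and foresees pooled arches. Whether the arrays of a group came from separate pools was not stated, so p-values measure the spread between these arrays, which may be technical.

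Dlx genes, which code for transcription factors with a homeodomain, are expressed in nested domains along the arch. Dlx1 and Dlx2 act in both branches, and Dlx5 and Dlx6 act mainly in the lower branch, downstream of endothelin signalling from the arch epithelium. Embryos without Dlx5 and Dlx6 are known for a lower jaw that takes on the form of an upper jaw, so the mutant lower branch is often called transformed. Hand2 and Hand1, Gsc, Gbx2, Pitx1 and Dlx3 are known as genes of the lower branch, and Pou3f3, Foxl2, Irx3, Irx5, Lhx6 and Lhx8 as genes with higher levels in the upper branch.

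Signals below are the deposited linear intensities, with the SD over 3 arrays. Differences are on the scale of log2(signal + 32) after quantile normalization, which understates the changes of dim genes, and ± after a difference is the SE from limma. A gene was represented by 1 probe set and called at an adjusted p under 0.05. The arrays compared were alike in quality, with median signals of 27.5 to 30.9, correlations with group mates of 0.985 to 0.987 and actin 3'/5' ratios of 1.26 to 1.31 in the mutant and 1.29 to 1.52 in set 1. Their bacterial spike-in control dap read 282 to 364, as on the WT mandibular arrays, but 2670 to 3030 on the 6 arrays of set 2 and the KO group. Set 2 therefore lies in another array set. Between set 1 and set 2, 1268 genes (9.1%) were called, and a value against set 2 cannot be told apart from that array set.

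Of 13934 genes tested, 109 were called between the mutant lower branch and the WT maxillary branch (0.782%), 36 higher (0.258%) and 73 lower (0.524%). The same counts at the level of probe sets were 188 of 31643 (0.594%), 64 higher and 124 lower. With arrays shifted to a common median in place of quantile normalization, the genes divided into 52 higher and 67 lower. All 109 called genes had arrays that did not overlap between the groups, against 2122 of all genes tested (15.2%). For scale, 496 genes were called between the WT branches (3.56%), 217 of them higher (1.56%) and 279 lower (2%) in the mandibular branch, and 440 between the mutant and the WT mandibular branch (3.16%), 220 in each direction (1.58% each). Against set 2, 846 genes were higher (6.07%) and 741 lower (5.32%) in the mutant, 1587 in all (11.4%). These comparisons share arrays, so their values are set side by side and no agreement between them is read as a result.

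The called genes were placed by these comparisons. Residual mandibular genes, 23 in number, were higher in the mutant than in the WT maxillary branch and also mark the WT mandibular branch. Missing maxillary genes, 55 in number, were lower in the mutant and also lower in the WT mandibular branch. A group of 18 genes lay beyond both WT branches, 9 above and 9 below, and 13 called genes were in none of these groups. The median size of the difference was 0.68 for residual mandibular, 0.98 for missing maxillary and 0.70 for genes beyond both branches, and the median difference of all genes tested was -0.0026. Since calls chose these genes, the counts and medians are a description. Leaving out WT maxillary array 1 lowered the missing maxillary genes to 36 and all genes called lower to 47, and leaving out mutant array 2 lowered the genes beyond both branches to 11 and the called probe sets to 121.

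**Figure D1:**
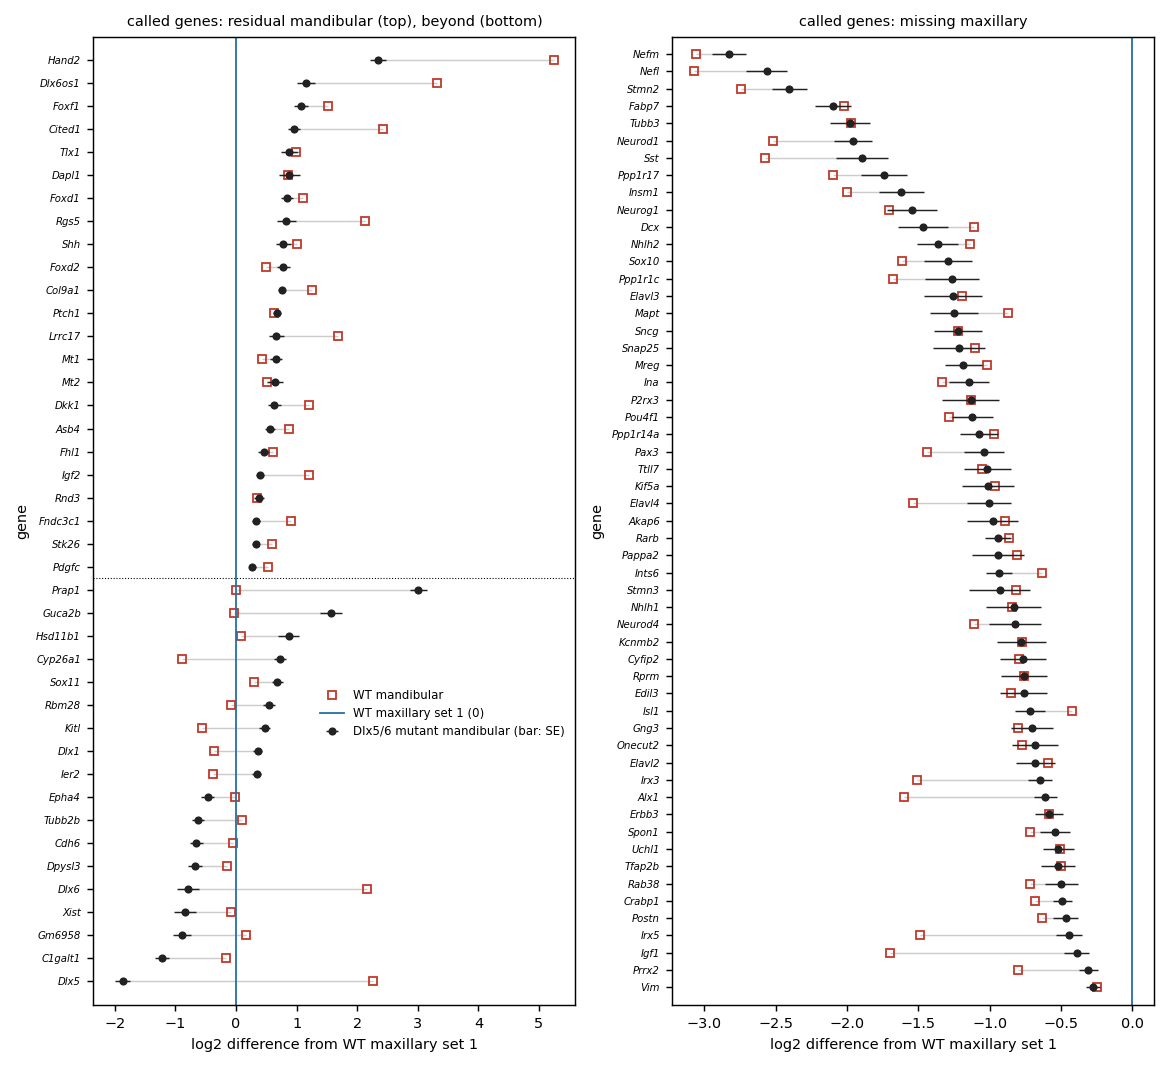
Differences of the called genes from WT maxillary set 1 on the log2(signal + 32) scale, 1 row per gene, with the mutant lower branch as black points (bars are the SE) and the WT mandibular branch as open squares. Hand2 of the mutant lies at 2.34 with the WT mandibular branch at 5.24, Dlx5 lies at -1.87 with the WT mandibular branch at 2.26, and most missing maxillary genes of the mutant lie close to their WT mandibular squares.

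Several of the 23 residual mandibular genes code for transcription factors. The largest difference of the 23 was that of Hand2, whose product is a basic helix-loop-helix factor required for lower jaw development. Its signals were 199, 198 and 187 on the mutant arrays against 9.41, 17.0 and 14.2 on the WT maxillary arrays, and 1685, 1702 and 1606 on the WT mandibular arrays. All mutant arrays lay above all maxillary arrays and far below all mandibular arrays, and the maxillary signals lay under the 40th percentile of their arrays. The difference from the maxillary branch was 2.34 ± 0.13 (adjusted p = 7.0e-11), and that from the WT mandibular branch was -2.90. A second, dimmer Hand2 probe set read 22.8 in the mutant, 16.7 in the maxillary and 169 in the mandibular branch and was not called against the maxillary branch (0.20, adjusted p = 0.83).

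The forkhead genes Foxf1, Foxd1 and Foxd2, which respond to hedgehog signals in arch mesenchyme, were also above the maxillary level. Foxf1 read 182, 186 and 218 in the mutant against 81.3, 91.3 and 61.0 in the maxillary branch, a difference of 1.07 ± 0.12 (adjusted p = 8.6e-06), with a WT mandibular mean of 279.8. A second, dimmer Foxf1 probe set read 54.9 in the mutant and 18.1 in the maxillary branch without overlap and was not called (0.84, adjusted p = 0.108). Foxd1 read 441, 387 and 412 against 247, 197 and 210.2, a difference of 0.84 ± 0.09 (adjusted p = 7.7e-06), and was not called against the WT mandibular branch (-0.26, adjusted p = 0.17). Foxd2 read 155, 173 and 185 against 78.8, 104 and 81.6, a difference of 0.78 ± 0.11, and the mutant mean of 171 was not called against the WT mandibular mean of 136. For these forkhead genes the mutant arrays lay above every maxillary array, of either set. Tlx1, a homeobox gene, behaved in the same way, with 74.4, 64.2 and 57.8 in the mutant, 19.9, 20.2 and 26.4 in the maxillary branch and a mean of 74.3 in the WT mandibular branch (difference 0.88 ± 0.14, adjusted p = 0.00086).

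Cited1, a transcription cofactor gene, and Dlx6os1, the antisense transcript of Dlx6, stood between the branches as Hand2 did. Cited1 signals were 194, 198 and 178 in the mutant, 96.3, 76.5 and 77.1 in the maxillary branch and 592 ± 21.6 in the mandibular branch (SD, n = 3), with differences of 0.96 ± 0.10 from the first and -1.47 from the second. For Dlx6os1 the mutant arrays read 67.4, 57.6 and 74.1 and the maxillary arrays 8.11, 11.8 and 20.0, a difference of 1.16 ± 0.15 (adjusted p = 6.2e-05), against 422 ± 25.1 in the WT mandibular branch. The mutant arrays of both genes overlapped neither branch. Dlx6os1 comes from the locus of the targeted genes, and the sources used here do not place its probes relative to the deleted part.

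A list of 22 mandibular regulator genes, written with earlier results of these data known, had 19 members tested. Of these, 4 were higher than the maxillary level (Hand2, Foxf1, Cited1 and Foxd1), 2 were lower (Dlx5 and Dlx6) and 13 were not called. Over all genes, 0.258% were called higher and 0.524% lower. The median difference over the 19 was 0.04, beside -0.0026 over all genes. At an unadjusted p under 0.05 were 14 of the 19 (73.7%), beside 8.93% of all genes. A member not called is therefore not shown to be at the maxillary level. Of the 11 members that mark the WT mandibular branch, 5 were not called against the maxillary branch. These were Dlx3 (0.04, 95% interval -0.27 to 0.34), Gsc (0.04, -0.35 to 0.43), Gbx2 (0.25, -0.11 to 0.60), Pitx1 (0.25, -0.04 to 0.54) and Hand1 (0.38, 0.05 to 0.71). The upper bounds of these intervals run from 0.34 for Dlx3 to 0.71 for Hand1, and the interval of Hand1 does not include 0 although the gene was not called. Further probe sets of Dlx3, Pitx1 and Hand1 gave -0.30, 0.025 and 0.36 and were not called. Against set 2, 6 of the 19 list members were called higher and 5 lower, beside 6.07% and 5.32% of all genes. Gsc signals were 22.8, 4.31 and 22.3 in the mutant and 8.07, 20.8 and 18.3 in the maxillary branch, which overlapped, against 191 ± 14.4 in the WT mandibular branch.

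**Figure D2:**
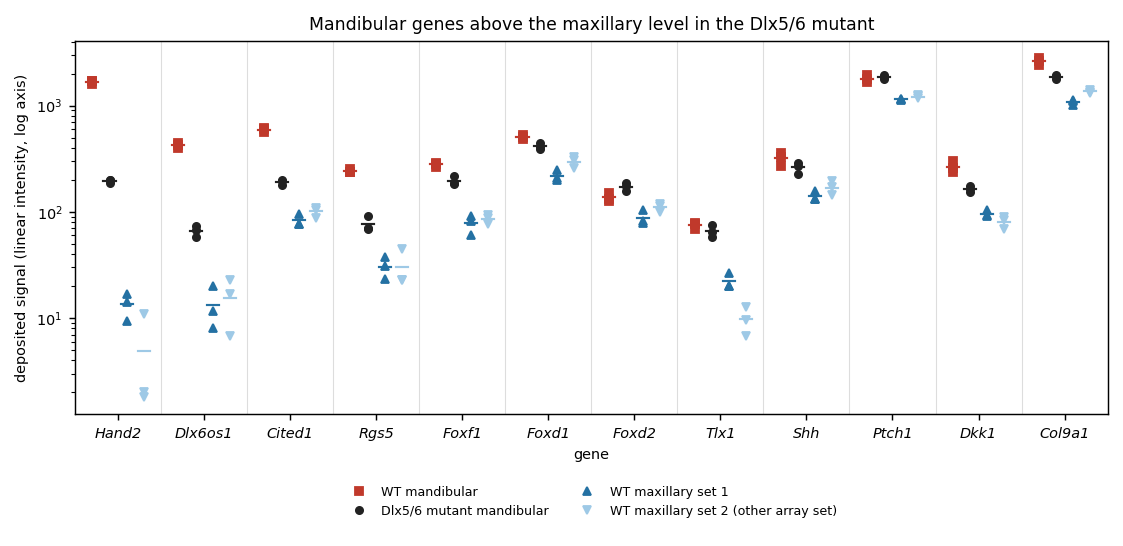
Deposited signal (log axis) of 12 residual mandibular genes on each array of the WT mandibular, mutant mandibular and both WT maxillary groups, with a bar at each group mean. Every mutant array lies above every WT maxillary array of both sets for these genes, and for Tlx1, Ptch1 and Shh the mutant arrays overlap the WT mandibular arrays.

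The residual genes Shh, Ptch1 and Dkk1 code for signalling components. Shh, the hedgehog ligand of the oral epithelium, read 273, 229 and 288 in the mutant against 157, 131 and 133 in the maxillary branch. Its difference was 0.78 ± 0.13 (adjusted p = 0.0013), and it was not called against the WT mandibular branch (-0.23, adjusted p = 0.46). Ptch1, the hedgehog receptor and a target of the pathway, read 1951, 1855 and 1792 against 1158, 1122 and 1149, a difference of 0.68 ± 0.06 (adjusted p = 6.4e-07), with a WT mandibular mean of 1782. For both genes the mutant arrays lay above all maxillary arrays. Other probe sets of Ptch1 (0.17 and 0.24) and Shh (0.09), all dimmer, were not called. Of the 13 hedgehog pathway genes tested, these 2 were called higher and 0 were called lower, with 7 at an unadjusted p under 0.05 (53.8%, beside 8.93% of all genes). Their median difference was -0.03, with 6 of the 13 on the positive side. Among those not called, the pathway targets Gli1 and Hhip gave 0.37 and 0.48, and Cdon and Boc, which code for co-receptors of the ligand, gave -0.33 and -0.29.

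Dkk1, a secreted WNT antagonist, was the 1 called gene of 22 WNT pathway genes, beside 0.782% of all genes. At an unadjusted p under 0.05 were 2 of the 22 (9.09%), near the 8.93% of all genes. Its signals were 163, 176 and 155 in the mutant against 92.3, 104.7 and 91.4 in the maxillary branch and a mean of 265 in the mandibular branch (difference 0.63 ± 0.11, adjusted p = 0.0029). Col9a1, a cartilage collagen gene and the 1 called gene of 11 early skeletal genes, read 1918, 1884 and 1790.5 against 1129, 1012 and 1102, a difference of 0.75 ± 0.06 (adjusted p = 3.0e-08), and a second probe set gave 0.51 (adjusted p = 0.0034). Col9a1 was also the only early skeletal gene at an unadjusted p under 0.05 (9.09% of the 11, near the 8.93% of all genes). The mutant arrays of both Dkk1 and Col9a1 lay between the WT branches. In the lists of 20 BMP, 13 FGF and 7 endothelin pathway genes limma called 0 members, with 5, 3 and 2 at an unadjusted p under 0.05 beside 1244 of all genes (8.93%), and medians of -0.02, -0.03 and 0.01. Edn1, the endothelin ligand that acts upstream of Dlx5 and Dlx6, differed by 0.57 and was not called.

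Other residual genes, named after their values were seen, included the imprinted growth factor gene Igf2 (0.39 ± 0.07, adjusted p = 0.0047), the metallothionein gene Mt1 (0.67 ± 0.10) and Asb4, a component gene of ubiquitin ligase complexes (0.56 ± 0.08, adjusted p = 0.00017). Igf2 read 3558, 3222 and 3333 in the mutant against 2416, 2603 and 2314 in the maxillary and a mean of 5541 in the mandibular branch. Mt1 read 569, 582 and 593 against 360.4, 346 and 359. A second Asb4 probe set read 633 in the mutant and 532 in the maxillary branch without overlap and was not called (0.245, adjusted p = 0.604). Rgs5, which encodes a regulator of G-protein signalling and is used as a mark of mural cells, differed by 0.83 ± 0.15, but its call was lost without mutant array 2 or WT maxillary array 2 (adjusted p up to 0.069) and none of its other 3 probe sets was called. The remaining 6 mural cell markers tested were not called. Of the 23 residual genes, 14 stayed called when each of the 6 arrays was left out in turn, 22 were called in the same direction against set 2, 13 had fallen from the WT mandibular level and 10 were not called against it. Other probe sets existed for 14 of them and were called in the same direction for 3 and in the opposite direction for 0.

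Promoters of the residual genes are shown because Dlx proteins, like other homeodomain proteins, are known to bind sites with a TAAT core. The 250 bases before the start of each gene were taken from RefSeq (build GRCm38.p6) for 21 of the 23 residual genes, and searched for TAATTA, whose reverse complement is the same. This motif was found in promoters of Hand2, Asb4 and Dlx6os1, that is 3 of 21 genes (14.29%), against 344 of 11193 genes tested that had a promoter in the table (3.07%). Counted over promoters of this length, 361 of 14266 held it (2.53%). It was found for 3 of 37 missing maxillary genes (8.11%), which were Dcx, Elavl4 and Neurog1, and for 0 of 13 genes beyond both branches. Such a match is a description of letters and not a binding site. The promoters of Hand2, the gene with the largest residue, and of Asb4 follow 5′ to 3′ on the gene's strand, with the motif in capitals. A second Asb4 start in the table (chr6:5390160-5390409) does not hold the motif.
Hand2, chr8:57320733-57320982, plus strand: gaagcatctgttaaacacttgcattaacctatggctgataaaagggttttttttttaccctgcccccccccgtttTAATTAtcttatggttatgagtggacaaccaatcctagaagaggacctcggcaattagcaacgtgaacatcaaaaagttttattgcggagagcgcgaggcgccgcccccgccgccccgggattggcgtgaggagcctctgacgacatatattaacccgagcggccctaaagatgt
Asb4, upstream start, chr6:5383136-5383385, plus strand: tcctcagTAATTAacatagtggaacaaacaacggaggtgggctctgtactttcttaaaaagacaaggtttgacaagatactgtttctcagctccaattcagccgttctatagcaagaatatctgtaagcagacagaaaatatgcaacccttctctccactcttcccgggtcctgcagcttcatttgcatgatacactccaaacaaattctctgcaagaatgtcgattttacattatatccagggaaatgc

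Maxillary genes divided mainly into those not called against the maxillary branch and those called short of it. Of 19 maxillary regulator genes tested (20 listed, with earlier results known), 11 were lower in the WT mandibular branch. In the mutant, 7 of these 11 were not called against the maxillary branch, 3 were lower and 1 was higher. Of all 19, 1 was called higher and 3 lower, beside 0.258% and 0.524% of all genes. The list's median difference was -0.12. At an unadjusted p under 0.05 were 10 of the 19 (52.6%), beside 8.93% of all genes. Pou3f3, a POU homeodomain factor gene of the upper jaw, read 1050.4, 946 and 1082 in the mutant and 935, 1060.3 and 1022 in the maxillary branch, against 207 ± 13.4 in the WT mandibular branch. The mutant and maxillary arrays overlapped, and the difference was 0.01 with a 95% interval of -0.17 to 0.19. Foxl2, a forkhead gene (-0.12, -0.32 to 0.09), and Lhx6, a LIM homeobox gene (-0.13, -0.31 to 0.06), were also not called, and Lhx8 (-0.15, -0.29 to -0.01) lay slightly lower without passing the threshold. On these probe sets the intervals bound any shortfall of Foxl2, Lhx6 and Lhx8 at 0.32, 0.31 and 0.29 on the log2 scale. A second, dimmer Foxl2 probe set read 46.7 in the mutant and 21.3 in the maxillary branch without overlap (0.61, adjusted p = 0.23), was called higher against set 2 (0.95, adjusted p = 0.0015), and turned the sign of the mean over both probe sets (0.25, adjusted p = 0.41).

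The Iroquois homeobox genes rose from the mandibular level and stopped short of the maxillary level. Irx3 signals were 709.6, 536 and 581 in the mutant, 943, 917 and 987 in the maxillary branch and 318 ± 23.2 in the WT mandibular branch. The mutant arrays lay between the branches without overlap, with differences of -0.65 ± 0.09 from the maxillary (adjusted p = 9.4e-05) and 0.87 from the mandibular branch. Irx5 read 278, 281 and 292 against 379, 397 and 421, a difference of -0.44 ± 0.09 (adjusted p = 0.016). The Irx5 call was lost in 5 of the 6 fits that left out 1 array (adjusted p up to 0.11) and against set 2 (-0.25, adjusted p = 0.08), whereas that of Irx3 held in all 6 and against set 2 (-0.75).

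Alx1, a homeobox gene of the upper face, was named after its values were seen. It read 325, 362 and 339 in the mutant against 525, 513 and 586 in the maxillary branch and 157 ± 12.6 in the mandibular branch. Its difference was -0.61 ± 0.08 (adjusted p = 9.4e-05), a second probe set gave -0.63 (adjusted p = 0.022), and against set 2 it was -0.87. The homeobox gene Prrx2 (-0.31 ± 0.07, adjusted p = 0.026) and the growth factor gene Igf1, named after its values were seen (-0.39 ± 0.09, adjusted p = 0.031) had also risen and stayed lower, but each call was lost in 5 of the 6 fits without 1 array (adjusted p up to 0.18 and 0.19) and against set 2. The other 3 Igf1 probe sets gave -0.25, -0.29 and -0.11 against the maxillary branch and were not called (adjusted p = 0.388, 0.0988 and 0.841). In these 5 genes, Irx3, Irx5, Alx1, Prrx2 and Igf1, the mutant was called higher than the WT mandibular branch. They were all the missing maxillary genes outside the neuron and glia marker lists of which this was so.

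**Figure D3:**
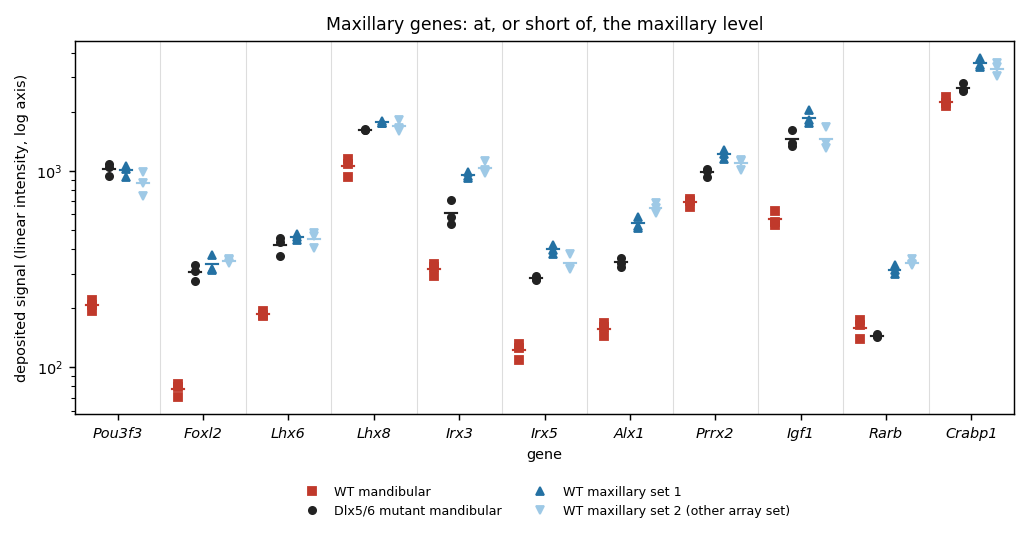
Deposited signal (log axis) of 11 maxillary genes on each array, with a bar at each group mean. Pou3f3, Foxl2 and Lhx6 of the mutant were not called against WT maxillary set 1. The mutant arrays of Irx3, Irx5, Alx1, Prrx2 and Igf1 lie between the branches. Those of Rarb lie at 143 to 147 with the WT mandibular arrays.

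Retinoic acid genes went in both directions. Retinoic acid, made by Aldh1a enzymes and cleared by Cyp26 enzymes, acts through the nuclear receptors Rara, Rarb and Rarg, and Rarb is a well-known target of the signal itself. Rarb read 145, 147 and 143 in the mutant, 311, 299 and 331 in the maxillary branch and 174, 139 and 164 in the WT mandibular branch. The mutant arrays lay among the mandibular ones and far under the maxillary ones, with a difference of -0.94 ± 0.09 (adjusted p = 7.1e-07) from the maxillary branch and -0.08 from the mandibular branch. Crabp1, a cytoplasmic retinoic acid binding protein gene, read 2792, 2572 and 2544 against 3383, 3775 and 3450.2, a difference of -0.49 ± 0.06 (adjusted p = 7.9e-05), and was not called against the mandibular mean of 2248. Both calls held against set 2 (-1.07 and -0.32) and without each array.

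Cyp26a1, the gene of a retinoic acid clearing enzyme, was higher in the mutant than in either branch. Its signals were 282, 267 and 286 in the mutant, 154, 164 and 153 in the maxillary branch and 60.02, 74.5 and 70.1 in the mandibular branch. The groups did not overlap, and the differences were 0.72 ± 0.10 from the maxillary (adjusted p = 9.2e-05) and 1.62 from the mandibular branch. It was as large against set 2 (0.76). Of 16 retinoic acid pathway genes tested, 1 was higher and 2 were lower than in the maxillary branch, beside 0.258% and 0.524% of all genes. The median of the 16 was -0.08, and 6 had an unadjusted p under 0.05 (37.5%, beside 8.93% of all genes). Aldh1a2 and Aldh1a3, which make the signal, gave -0.31 and -0.37 and were not called, nor were Dhrs3 (-0.52), Cyp26b1 (-0.49), Rara (0.02) and Rarg (-0.06).

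The promoters of Irx3, which rose partway, and Rarb, which stayed at the mandibular level, are shown for comparison with that of Hand2. Neither holds the TAATTA motif in these 250 bases.
Irx3, chr8:91801655-91801904, minus strand: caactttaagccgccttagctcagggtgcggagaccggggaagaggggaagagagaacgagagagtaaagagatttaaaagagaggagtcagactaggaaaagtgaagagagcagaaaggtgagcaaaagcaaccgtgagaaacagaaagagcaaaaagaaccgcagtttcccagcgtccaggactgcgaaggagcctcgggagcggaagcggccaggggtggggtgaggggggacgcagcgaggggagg
Rarb, chr14:16575477-16575726, minus strand: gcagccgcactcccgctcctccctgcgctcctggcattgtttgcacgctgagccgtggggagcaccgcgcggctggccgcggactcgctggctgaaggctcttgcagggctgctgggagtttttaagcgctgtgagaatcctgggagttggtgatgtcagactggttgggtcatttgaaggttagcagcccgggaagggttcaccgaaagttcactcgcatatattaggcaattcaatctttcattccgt

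The largest shortfalls among the missing maxillary genes were in genes of neurons and glia. The maxillary branch at this stage is entered by nerve fibres of the trigeminal ganglion, whose cell bodies lie close to it. Nefm, a neurofilament gene, read 47.6, 80.7 and 65.5 in the mutant, 641, 669 and 682 in set 1 and 44.8, 50.6 and 53.6 in the WT mandibular branch, a difference of -2.83 ± 0.12 from set 1 (adjusted p = 8.1e-13). Stmn2, a gene of growing axons, gave -2.40 ± 0.13 and Tubb3, the neuronal tubulin gene, -1.98 ± 0.14. Fabp7, a gene of glial precursors, gave -2.10 ± 0.13. Neurod1 and Neurog1, factor genes of cells becoming sensory neurons, gave -1.96 ± 0.13 and -1.54 ± 0.18. Neurod1 read 26.4, 24.3 and 21.7 in the mutant against 159, 227 and 190.4 in set 1, and Neurog1 was under the 40th percentile of its array on all mutant arrays against 88.7, 62.4 and 87.1 in set 1.

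Of 18 sensory neuron markers tested, 14 were lower than in set 1, beside 0.524% of all genes, and the median difference was -1.24. Of 6 glia markers, 3 were lower (Fabp7, Sox10 and Erbb3), with a median of -0.46. The summed signal of the neuron markers was 1613 to 1712 on the mutant arrays and 4309 to 4480 in set 1, but 2499 to 2522 in set 2 and 1466 to 1599 in the WT mandibular branch, and that of the glia markers was 292 to 307 against 677 to 859 in set 1 and 472 to 596 in set 2. Both WT maxillary groups thus lay above the mutant, and they differed from each other. In bulk tissue, fewer cells of a type and less RNA per cell cannot be told apart. The part of neuron content in each of these differences was not tested.

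Of the 55 missing maxillary genes, 14 were on the neuron list, 3 on the glia list and 38 on neither. Several of the 38 are also known from neurons, such as Insm1 and, named after their values were seen, Nhlh2, P2rx3, Mapt and Sncg. Against set 2, 29 of the 55 were called lower and 53 kept the sign, and 30 differed between set 1 and set 2. Isl1, a marker of sensory neurons that is on the muscle list as well, was lower against set 1 (-0.72 ± 0.10) and not against set 2 (0.05). Vim, an intermediate filament gene named after its values were seen, behaved likewise, with -0.28 against set 1 and 0.002 against set 2. Of the 55, 48 were not called against the WT mandibular branch, and 35 stayed called when each of the 6 arrays was left out. Pax3, a paired-box gene of crest and sensory ganglia named after its values were seen, differed by -1.04 ± 0.14 on 1 probe set and -0.99 and -1.01 on the others, all called, and by -0.98 against set 2 on the first.

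**Figure D4:**
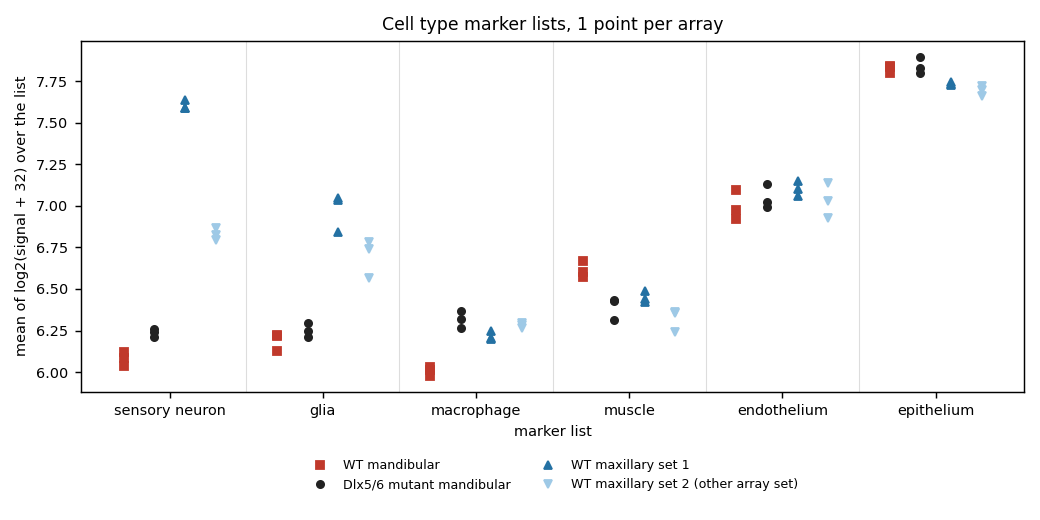
Mean log2(signal + 32) of 6 cell type marker lists, 1 point per array, in the WT mandibular, mutant mandibular and both WT maxillary groups. The neuron list of the mutant averages 6.24, close to the WT mandibular 6.08 and under set 1 at 7.61 and set 2 at 6.83, and the mutant and set 1 average 6.32 and 6.22 for macrophage, 7.05 and 7.10 for endothelium and 7.84 and 7.74 for epithelium markers.

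Markers of other cell types were mostly not called. Among 15 macrophage, 12 endothelium, 8 erythroid, 13 epithelium and 7 forebrain and eye markers limma called 0, with medians of 0.12, 0.02, 0.09, 0.08 and -0.06. At an unadjusted p under 0.05 were 2 (13.3%), 2 (16.7%), 2 (25%), 5 (38.5%) and 1 (14.3%), beside 8.93% of all genes. Of the 13 epithelium markers, 11 lay on the positive side, and 4 were called higher against set 2, beside 6.07% of all genes. The epithelium markers summed to 3049 to 3219 in the mutant and 2820 to 2868 in set 1, which did not overlap, and moved in the same direction as Shh. The part of epithelium content in the Shh difference was not tested. Erythroid markers summed to 26050 to 29640 against 23110 to 23700, all 8 on the positive side. The muscle markers summed to 699.8 to 798.6 in the mutant and 922.4 to 1002 in set 1, which did not overlap, and to 685.1 to 788.1 in set 2 and 898.7 to 969.9 in the WT mandibular branch. Of 11 tested, 1 was lower (Isl1), with 2 at an unadjusted p under 0.05 and a median of -0.07. The part of muscle content in the results was not tested. The forebrain markers Rax, Six6, Otx2 and Nkx2-1 were too dim to be tested. The 18 mitotic, 8 immediate early and 10 hypoxia genes tested had 0, 1 and 0 called members, with 1, 3 and 0 at an unadjusted p under 0.05, the called gene being Ier2 (0.34, adjusted p up to 0.17 when single arrays were left out).

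Among the Dlx genes the mutant lay outside both branches for Dlx5 and Dlx6, which checks the labels. Dlx5 read 10.99, 13.9 and 7.96 in the mutant against 138, 115 and 128.4 in the maxillary and 770.3, 721 and 689.9 in the mandibular branch, so the targeted gene was lower than in the branch that has little of it (-1.87 ± 0.12, adjusted p = 1.2e-09). Dlx6 read 2.62, 5.07 and 2.28 against 38.8, 32.4 and 19.8 in the maxillary branch (-0.80 ± 0.18, adjusted p = 0.039), a call lost in 5 of the 6 fits without 1 array (adjusted p up to 0.21). For both, all mutant arrays lay under the 40th percentile of their array. Dlx1 stood on the other side. It read 776, 842 and 823 against 629, 641 and 620.3 in the maxillary and 481, 490 and 476 in the mandibular branch, with a difference of 0.36 ± 0.07 (adjusted p = 0.013). The Dlx1 arrays did not overlap with set 1, but the call was lost without 4 of the 6 arrays in turn (adjusted p up to 0.098) and against set 2 (0.17). Dlx2 and Dlx4 were not called against set 1 (0.26 and -0.48). Against set 2 Dlx2 had the opposite sign and was not called (-0.29, adjusted p = 0.06), and Dlx4 was called lower (-0.63, adjusted p = 0.012).

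The largest rise beyond both branches was in Prap1, a gene known for a proline-rich secreted protein of gut and uterus. It read 237, 249 and 235 in the mutant and 2.59, 2.04 and 1.65 in the maxillary branch, with a mean of 1.87 in the mandibular branch and 2.11 in set 2. The difference was 3.00 ± 0.14 (adjusted p = 5.1e-12), and a second probe set gave 2.66 (adjusted p = 2.7e-09). Guca2b, the gene of the gut peptide uroguanylin, read 80.4, 77.2 and 76.9 against 4.88, 7.03 and 6.29 (1.57 ± 0.18, adjusted p = 1.2e-05). The mutant arrays of both stood apart from every wild-type array, all of which lay under the 40th percentile of their array. Hsd11b1, a gene of glucocorticoid activation, gave 0.87 ± 0.17, a call lost without 4 of the 6 arrays in turn.

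**Figure D5:**
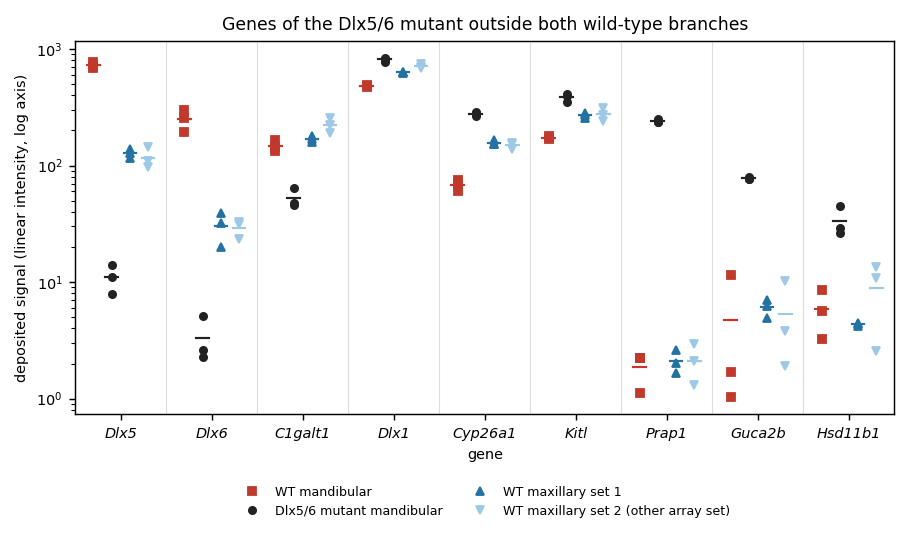
Deposited signal (log axis) of 9 genes for which the mutant lay outside both WT branches, on each array, with a bar at each group mean. Prap1 and Guca2b of the mutant lie at 235 to 249 and 76.9 to 80.4 above all WT arrays, Dlx5, Dlx6 and C1galt1 below all WT maxillary and mandibular arrays, and Cyp26a1 at 267 to 286 above all of them.

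C1galt1, a gene of O-glycan synthesis, was lower than in both branches, with 47.5, 46.0 and 64.1 in the mutant against 179.8, 161 and 169 in the maxillary branch (-1.23 ± 0.12, adjusted p = 7.4e-07) and 148 ± 15.6 in the mandibular branch. Its other probe sets gave -0.51 (adjusted p = 0.13) and 0.19 (adjusted p = 0.74), so the probe sets disagree. C1galt1 is the 4th protein-coding gene on the right of Dlx5 in RefSeq's gene order on chromosome 6, and the residual gene Asb4 is the 6th on the left. Of the 24 nearest protein-coding neighbours of Dlx5, 12 on each side, 19 were tested and 3 were called, beside 0.782% of all genes. These were Dlx6, Asb4 and C1galt1. Dlx6 is itself a targeted gene, so its call says nothing about the neighbourhood. On the probe sets used, Asb4 was higher (0.56) and C1galt1 lower (-1.23). Dlx6os1, also called and not protein-coding, is not in this count. The neighbours between Dlx5 and C1galt1 (Sdhaf3, Tac1 and Asns) were at -0.10, -0.07 and -0.09.

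Among the other genes beyond both branches, Cdh6, a cadherin gene of neural crest, was lower on both probe sets (-0.65 ± 0.10 and -0.64, adjusted p = 0.0011 and 0.038), and Tubb2b, a tubulin gene, was lower by -0.62 ± 0.10, both named after their values were seen. Kitl, the ligand gene of the Kit receptor, also named after its values were seen, was higher on 1 of 4 probe sets (0.47 ± 0.09, adjusted p = 0.012), a call lost without 3 of the 6 arrays in turn. Sox11, a factor gene of progenitor cells, was higher on 1 of 6 probe sets (0.68 ± 0.09), and that probe set was lower against set 2 (-0.89), so no direction can be given for this gene. Epha4 (-0.46), the 1 called gene of 24 axon guidance genes, lost its call in all 6 fits without 1 array. At an unadjusted p under 0.05 were 7 of these 24 (29.2%), beside 8.93% of all genes. Xist, the transcript of the inactive X chromosome, was lower (-0.84 ± 0.19, adjusted p = 0.031) while the Y-linked genes Eif2s3y, Kdm5d and Uty lay at 0.36, 0.49 and 0.31, not called. A second Xist probe set read 292 in the mutant and 678 in the maxillary branch without overlap (-1.15, adjusted p = 1.3e-06, and -1.76 against set 2), another gave -0.45, not called, and the other 3 Uty probe sets gave 0.39 to 0.58, not called. The sexes of the embryos were not stated, and the call on the first Xist probe set was lost in all 6 fits without 1 array. The part of the embryos' sexes in the results was not tested. Of the 18 genes beyond both branches, 10 stayed called when each array was left out, 13 were called in the same direction against set 2 and 1 in the opposite direction.

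The remaining 13 called genes were called neither between the WT branches nor between the mutant and the WT mandibular branch. Of these, 4 were higher and 9 lower, and 1 stayed called without each of the 6 arrays in turn. This was Rgcc, a cell cycle regulator gene, with 24.0, 14.2 and 29.5 in the mutant against 98.6, 85.9 and 75.6 in the maxillary and 44.1 ± 6.78 in the mandibular branch (-1.10 ± 0.18, adjusted p = 0.0013). Its mutant arrays lay below all maxillary arrays, and below every mandibular array.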

How the data were processed

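RNA was measured on 15 arrays, 3 per group. Each deposited value is a probe set's intensity on a linear scale, and the 2% trimmed mean was 150 on each array, so the arrays had been scaled. How signals were summarised and scaled is not stated in the sources used. Here, log2(intensity + 32) was quantile normalized. After 64 controls were removed from 45101 probe sets, 31643 exceeded the array's 40th percentile on 3 or more arrays and were tested. The platform's annotation named 1 gene for 34958 probe sets and several for 932, and 9211 are unnamed here. RefSeq matched 34754 identifiers and changed 0 symbols. A gene was its brightest kept probe set, preferring specific ones. limma 3.58.1 (R 4.3.3) fitted 5 group means with 10 residual degrees of freedom and an intensity trend, and two-sided p-values were adjusted by Benjamini-Hochberg over kept probe sets. The median SE was 0.148, and the number of arrays limits the precision. The procedure was tested on simulated data.

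The genes, the 23 lists and the tests were chosen with earlier results of these data known. Named genes were taken from the 10 largest differences of each group of called genes, Dlx1 to Dlx6, the regulator lists, up to 4 called members of other lists and defining cell type markers. Not every gene that this rule allows is named in the text. Genes outside this rule were named after their values were seen. Alternatives tried were other normalizations, pseudocounts, filters, variance models, thresholds, fits, probe set rules, the other control and single arrays left out.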

Additional observations from a re-analysis of the deposited data

How the results depend on the processing

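The counts of called probe sets, genes higher, genes lower, residual mandibular, beyond both branches and missing maxillary were 188, 36, 73, 23, 18 and 55. With WT maxillary set 2 as control, which lies in another array set, they became 3536, 846, 741, 455, 116 and 358. At an adjusted p under 0.01 they were 107, 22, 44, 15, 10 and 36. At a fold of 1.5 or more, 123 probe sets, 22 genes higher, 13 residual and 11 beyond remained past the threshold, and without the intensity trend 125, 23, 15 and 11. Leaving out each array in turn gave 121 to 213 probe sets, 24 to 40 genes higher, 47 to 78 lower, 16 to 22 residual, 11 to 27 beyond and 36 to 52 missing. Under the other normalizations, pseudocounts, filters, array weights, smaller fits and probe set rules the counts stayed within 1.5 times. Direction reversed against set 2 for Sox11 (-0.894), Bcl2l11 (-0.328), Isl1 (0.052) and Vim (0.002). Of the 28 genes followed although not called, 6 changed sign against set 2, among them Dlx2, which turned from 0.259 to -0.287. A further 7 kept their sign and were called against set 2. The cause was not tested. Same-numbered arrays deviated together with correlations of only -0.096 to 0.085 (30 array pairs), which gives no pairing. With the replicate block 177 probe sets, 33 genes higher, 70 lower, 22 residual, 19 beyond and 52 missing were called. The fit of the 2 groups alone gives no group counts, and the mean of all probe sets of a gene gives no probe set count. Dim signals limit what could be seen, since only 31643 of 45101 probe sets were bright enough to be tested.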
